A study of Homo sapiens with 6 samples.

Results

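The 10 genes described here encode secreted signals of epithelial cells. They are the CXC chemokines CXCL1, CXCL2, CXCL3, CXCL5, CXCL6 and CXCL8 (interleukin-8), the CC chemokines CCL2 and CCL20, and the cytokines IL6 and LIF. Every array probe annotated to 1 of these genes was taken, which gave 13 probes of the 48799 with values. Each gene had 1 probe except CXCL5, CXCL6 and CXCL8, which had 2 each. A probe was called above background at a detection p under 0.01, the p being that of the probe's signal against the negative control beads of the same array. Probes above background on at least 3 of the 6 arrays were tested, and by that rule 4 of the 10 genes were measured, CXCL2, CXCL8, CCL20 and IL6. They stood among 10803 features tested in all, 8952 of them named genes of the 18852 that the array's probes name.

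The cells were RWPE-1, an immortalised, non-tumorigenic line of human prostate epithelium. In both groups they received an oligomer by transfection at 100 nM and were collected 72 h later. LNA-205 cultures (replicates D, E and F) received an antisense oligomer of locked nucleic acid, an RNA analogue with a bridged sugar that binds its complement tightly, directed against miR-205. LNA-Scr cultures (replicates A, B and C) received a scrambled oligomer. All 6 cultures were thus transfected, and the labels do not say whether the 3 arrays of a group came from separately grown cultures, so p-values measure the spread between these arrays, which may be technical. The silenced microRNA, hsa-miR-205-5p, lies at chr1:209432166-209432187 on the plus strand of GRCh38.p14. Its mature RefSeq sequence is shown because it is what the oligomer is directed against, with the seed (bases 2 to 8) in capitals.
hsa-miR-205-5p: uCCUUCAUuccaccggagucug

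CXC chemokines of this set carry a Glu-Leu-Arg motif ahead of their paired cysteines and call neutrophils to tissue through the receptor CXCR2, with CXCL8 and CXCL6 also using CXCR1. CCL20 acts on CCR6, CCL2 on CCR2, and IL6 and LIF on receptors that share the subunit gp130 (IL6ST) and activate STAT3. In epithelium most of these genes are induced by NF-kappaB after interleukin-1, TNF or Toll receptor signals, and their mRNAs are short-lived.

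The cells were checked against the markers of their label. Of 8 markers of basal prostate epithelium with a probe 8 were measured, KRT14 and KRT5 among them, while of 8 luminal markers only KRT8 and KRT18 were measured and KLK2, KLK3 and ACP3 were below background on all 6 arrays. Of 11 immune markers CD14 and CD68 were measured, and PTPRC, ITGAM and HLA-DRA were below background on every array. The mean log2 value of CD14 and CD68 was 9.496 to 9.934 on LNA-Scr arrays and 9.926 to 9.998 on LNA-205 arrays, so the groups overlapped in that mean. CD14 was 0.31 higher in LNA-205. CD68 was 0.20 higher without overlap (11.72 to 11.90 against 11.92 to 12.12), as in 12.2% of features in either direction. Other CD68 probes gave 0.01 and, above background on 2 arrays, −0.31. The part of CD14 and CD68 in the results below was not tested. None of 11 fibroblast and endothelial markers was measured. Between 12585 and 14195 probes were above background per array, most of them on LNA-Scr replicate A, and median intensities lay between 217 and 226.5. In bulk RNA such as this, fewer expressing cells and less RNA per cell cannot be told apart.

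The 6 CXC genes lie within a stretch of 9 protein-coding genes on chromosome 4 that holds, in order, CXCL8, CXCL6, PF4V1, CXCL1, PF4, PPBP, CXCL5, CXCL3 and CXCL2. CCL20 lies on chromosome 2, IL6 on 7, CCL2 on 17 and LIF on 22. Promoter sequences of 8 of the 10 genes (RefSeq, GRCh38.p14, 250 bases before to 50 after the annotated start) were matched by symbol. They are shown because the measured members varied together from array to array, as described below. The letters GGNNTTTCC, a short form of the NF-kappaB site chosen after the promoters had been read, were searched on both strands. A match was found in 8 of these 8 promoters, against 6.26% of 35116 promoters of the same length. With the letters chosen from these promoters, that count describes them and is no test. Any part of the matches in the shared variation was not tested. The stricter GGAATTTCC, a subset of the former, was found in 6 of the 8, all 6 CXC genes, against 0.461% of all. In the following 39-base windows, written along each gene's strand, capitals mark the match farthest from the start.
CXCL1: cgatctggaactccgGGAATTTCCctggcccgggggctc
CXCL2: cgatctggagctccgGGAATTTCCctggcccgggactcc
CXCL3: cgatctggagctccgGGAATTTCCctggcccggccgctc
CXCL5: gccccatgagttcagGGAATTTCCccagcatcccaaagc
CXCL6: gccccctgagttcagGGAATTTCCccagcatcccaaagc
CXCL8: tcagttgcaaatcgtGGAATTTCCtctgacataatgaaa
CCL20: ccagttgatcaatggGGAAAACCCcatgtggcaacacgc
IL6: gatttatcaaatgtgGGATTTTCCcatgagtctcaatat

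The windows lay at chr4:73869300-73869338 for CXCL1 (plus strand), chr4:74099249-74099287 for CXCL2 (minus strand), chr4:74038744-74038782 for CXCL3 (minus strand), chr4:73998744-73998782 for CXCL5 (minus strand), chr4:73836574-73836612 for CXCL6 (plus strand), chr4:73740463-73740501 for CXCL8 (plus strand), chr2:227813748-227813786 for CCL20 (plus strand) and chr7:22727113-22727151 for IL6 (plus strand). On the strand shown, the CCL20 letters are the reverse complement of GGGTTTTCC. The matches began between 72 bases (IL6) and 91 bases (CXCL8) before the start. CXCL1, CXCL2 and CXCL3 had a further match, GGGCTTTCC, beginning 53 bases before the start in each. The paralogues were similar beyond the match, with 83.1% identical positions in a global alignment of the CXCL5 and CXCL6 promoters and 82.5% for CXCL1 and CXCL3, but 43.8% for CXCL2 and CXCL8. All 6 CXC promoters held the same 9 letters whether or not the gene's probes were above background, and only CXCL2 and CXCL8 of the 6 genes passed the filter. Of the genes found below to have the profiles most like the members' mean, only the nearest 2 were examined. TNFAIP3 had 2 matches and DUSP1 had 0. The promoters of SNORD31, ZFYVE27 and HES1, about as near as DUSP1, were not examined singly. A match of letters is a description and does not show that a factor binds there. The full windows of CXCL8 and IL6 follow with the matches in capitals. With the brighter CXCL8 probe, the profiles of CXCL8 and IL6 over the arrays were the closest of any pair of measured members. The CXCL8 window is chr4:73740319-73740618 and the IL6 window chr7:22726950-22727249, both on the plus strand.
CXCL8: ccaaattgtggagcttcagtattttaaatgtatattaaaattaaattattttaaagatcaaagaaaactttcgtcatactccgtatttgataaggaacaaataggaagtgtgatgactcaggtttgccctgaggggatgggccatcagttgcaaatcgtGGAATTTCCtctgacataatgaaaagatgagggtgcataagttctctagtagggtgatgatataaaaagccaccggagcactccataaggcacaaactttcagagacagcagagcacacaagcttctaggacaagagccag
IL6: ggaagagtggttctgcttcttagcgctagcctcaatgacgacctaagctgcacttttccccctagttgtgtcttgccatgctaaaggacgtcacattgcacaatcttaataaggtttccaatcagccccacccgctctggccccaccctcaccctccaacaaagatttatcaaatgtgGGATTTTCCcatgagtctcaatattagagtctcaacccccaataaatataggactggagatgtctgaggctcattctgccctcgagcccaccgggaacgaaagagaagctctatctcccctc

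No measured member passed the test between LNA-205 and LNA-Scr. CXCL8, CXCL2, IL6 and CCL20 were above background on all 6 arrays, their group means differed by 0.07 to 0.29 on the log2 scale, and the values of the groups overlapped for each gene. Limma, adjusted with Benjamini-Hochberg over all 10803 features, called 0 of the 4 at a threshold of 0.05, and 0 of the 4 had an unadjusted p under that value. Over all features 0.00926% were called, 6.27% had an unadjusted p under 0.05 (3.19% higher and 3.07% lower in LNA-205), and in 12.2% the groups did not overlap, which was true of 0 of these 4.

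CXCL8, the main neutrophil attractant of human epithelium, had normalized log2 intensities of 10.05, 11.07 and 11.48 in LNA-Scr replicates A, B and C. In LNA-205 replicates D, E and F they were 10.76, 11.05 and 11.66. Replicate A was the lowest of the 6 and replicate F the highest, with the other LNA-205 arrays inside the range of LNA-Scr. The group means were 10.87 ± 0.74 and 11.16 ± 0.46 (SD over 3 arrays), and LNA-205 minus LNA-Scr was 0.29 (SE 0.36, 95% interval −0.54 to 1.13, limma adjusted p = 0.916). The interval spans a fold of 0.687 to 2.19. The other CXCL8 probe gave 9.26, 9.66 and 10.08 in LNA-Scr and 9.48, 10.23 and 10.38 in LNA-205, a difference of 0.36. Both probes put replicate A lowest, replicate D next and replicate F highest. Replicate A also stood lowest before any normalization, with a scanned intensity of 1129.1 for the first probe against 1996.0 to 3124.6 on the other arrays.

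CXCL2, a neutrophil chemokine from the far end of the same cluster, deviated from its own mean over the 6 arrays by −0.65, 0.09 and 0.30 log2 units on LNA-Scr replicates A, B and C. On LNA-205 replicates D, E and F it deviated by −0.09, −0.11 and 0.45. Again A was lowest and F highest. The mean log2 levels were 9.83 ± 0.50 and 9.99 ± 0.32 (SD, n = 3 per group), and the difference was 0.17 (SE 0.26, 95% interval −0.42 to 0.76, limma adjusted p = 0.938).

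CCL20, which draws CCR6-bearing lymphocytes and dendritic cells, had log2 values of 7.97, 9.11 and 9.10 in LNA-Scr and 8.81, 8.86 and 8.73 in LNA-205. The LNA-205 arrays lay close together (SD 0.07, n = 3) between a low replicate A and the nearly equal B and C (SD 0.66 over the 3 LNA-Scr arrays). The log2 difference was 0.07 (SE 0.28, 95% interval −0.58 to 0.72, limma adjusted p = 0.986).

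IL6, a gp130 cytokine of the acute-phase response that also promotes epithelial growth, had log2 values of 8.59, 9.71 and 10.23 in LNA-Scr and 9.45, 9.79 and 10.16 in LNA-205. The LNA-Scr group spanned the values of the other group, with A below and C above all 3 LNA-205 arrays. The difference was 0.29 (SE 0.38, 95% interval −0.58 to 1.17, limma adjusted p = 0.921), and the interval spans a fold of 0.667 to 2.24.

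**Figure D1:**
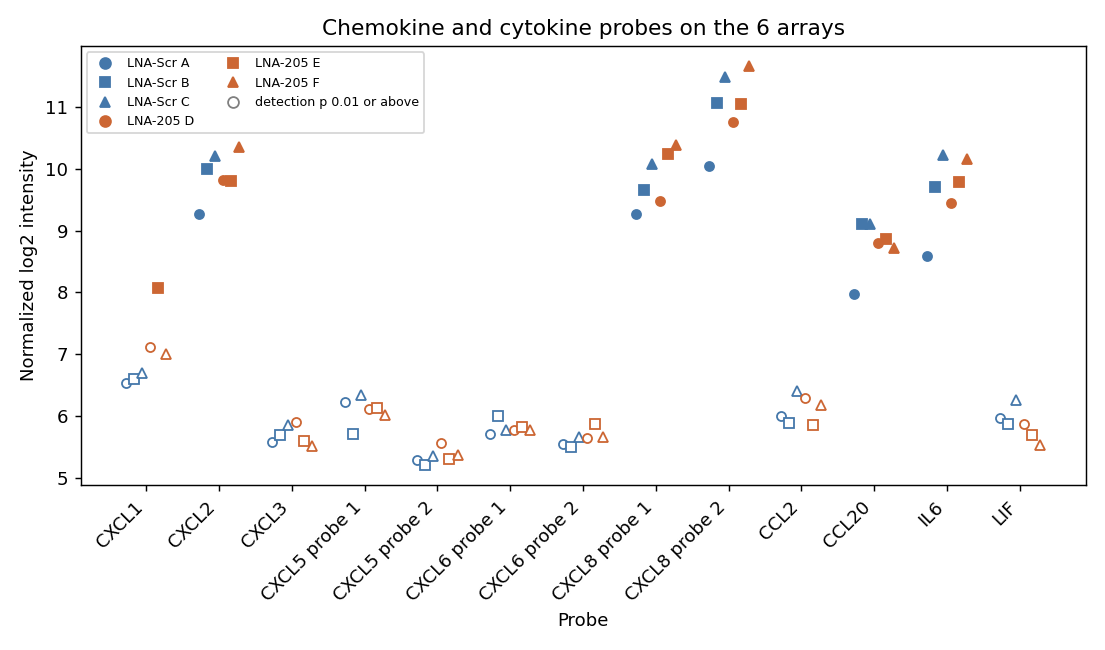
Normalized log2 intensity (vertical axis) of the 13 probes (horizontal axis) on each of the 6 arrays, with LNA-Scr in blue, LNA-205 in orange and open symbols where the detection p was 0.01 or above. The 5 probes of CXCL2, CXCL8, CCL20 and IL6 are above background throughout with overlapping groups, CXCL1 is filled only for LNA-205 replicate E, and the other 7 probes are open on all arrays.

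CXCL1, which like CXCL2 acts through CXCR2, was above background on 1 of the 6 arrays, LNA-205 replicate E. Its log2 values were 6.53, 6.61 and 6.70 in LNA-Scr and 7.11, 8.08 and 7.01 in LNA-205, so the groups did not overlap, as in 5.49% of the 39556 features in this direction when no detection filter was used. The scanned intensities were 258.6, 283.9 and 277.3 against 329.4, 463.1 and 298.8. Replicate E stood far above the rest, and replicate A was close to B and C. The fold can be neither measured nor bounded, because no LNA-Scr array measured the probe well above background, and replicate E alone of the LNA-205 arrays did. For each LNA-Scr array the dimmest signal that still passed detection there took the place of the CXCL1 signal wherever it was larger. The LNA-205 mean of 7.40 (measured LNA-Scr mean 6.61) was 1.05-fold above the mean of those stand-ins. That is no lower limit, since D and F, also below background, kept their measured values. The 1.05-fold rests on replicate E, since the mean of D and F alone, 7.06, lay under the stand-ins' mean of 7.33.

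CXCL1 did not pass the filter and was not tested with the others. Without a detection filter its limma adjusted p was 0.926, where 5.22% of features had an unadjusted p under 0.05 and 0% were called. With a detection p under 0.05 as the filter, chosen after the data were seen, all 6 arrays counted as detected and the adjusted p was 0.740. CXCL1 was then the 1 member of 5 with an unadjusted p under 0.05, which 6.2% of the 14105 features had. No size of the difference is given from these fits, since the LNA-Scr values were not above background.

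For CXCL3, CXCL5, CXCL6, CCL2 and LIF no array gave a signal well above background, and no fold is given for them. Their scanned intensities lay between 151.4 (one CXCL5 probe) and 259.0 (CCL2), and the lowest detection p of any of their 7 probes was 0.0501 (CCL2 on LNA-Scr replicate C). LIF, a gp130 cytokine of stem cell and epithelial renewal, read 186.3 to 245.2. Its normalized log2 values were lower in LNA-205 without overlap (5.535 to 5.870 against 5.874 to 6.258), as in 5.27% of features without a filter, but below background on all 6 arrays. CCL2, the monocyte chemokine, read 218.2 to 259.0. CXCL3 and CXCL6, neighbours of the measured CXCL2 and CXCL8 in the cluster, read 184.1 to 226.0 and 187.7 to 233.6. CXCL1, CXCL2 and CXCL3 are close in sequence, and cross-hybridisation between their probes was not tested.

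**Figure D2:**
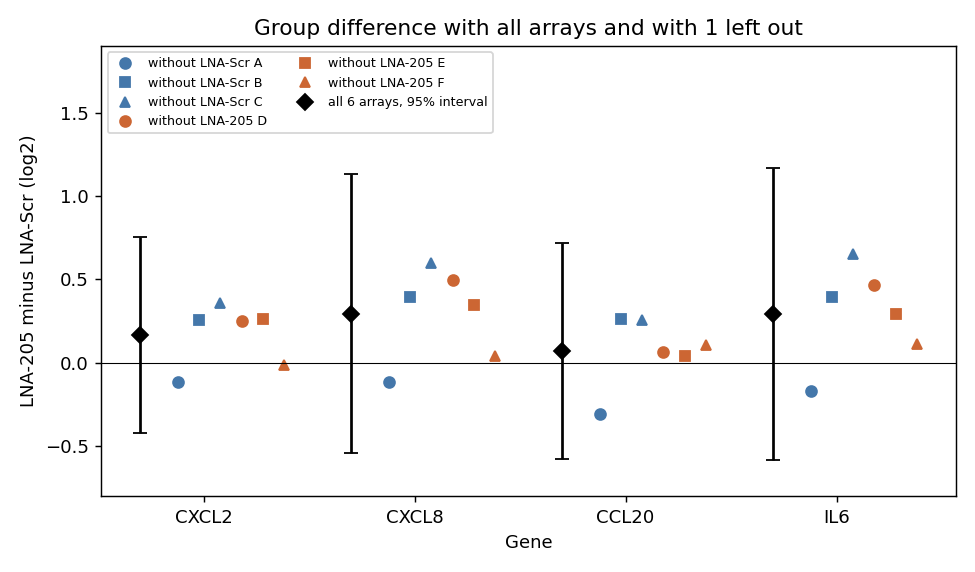
Log2 difference of LNA-205 minus LNA-Scr (vertical axis) for the 4 measured genes (horizontal axis), with all 6 arrays as black diamonds with 95% limma intervals and with 1 array left out as coloured symbols. Each interval includes 0, and the difference is below 0 for all 4 genes without LNA-Scr replicate A, and for CXCL2 also without LNA-205 replicate F.

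The direction of the difference rested on LNA-Scr replicate A. With all arrays the 4 measured members had higher means in LNA-205 (median 0.23, against −0.00 over all features). Without replicate A all 4 turned lower, with log2 differences of −0.11 for CXCL8, −0.11 for CXCL2, −0.31 for CCL20 and −0.17 for IL6, and limma adjusted p between 0.769 and 0.964. Of the 4, CCL20 then had an unadjusted p under 0.05, as did 6.21% of all features. Over all features the sign changed for 13.7% when replicate A was left out. Without LNA-205 replicate F the CXCL2 difference was −0.02. Leaving out replicate C raised the differences of CXCL8 to 0.60, of IL6 to 0.65, of CXCL2 to 0.36 and of CCL20 to 0.26, with adjusted p between 0.768 and 0.891. Without replicate B they were 0.40, 0.39, 0.25 and 0.26 in that order. Without replicate D those of CXCL8, IL6 and CXCL2 were 0.49, 0.47 and 0.25, and without replicate E that of CXCL2 was 0.26 and that of CCL20 0.04. Without replicate F those of CXCL8, IL6 and CCL20 were 0.04, 0.11 and 0.11.

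Arrays of the same group differed more for these genes than for most others. The SD within groups, pooled over both, was 0.64 for IL6, 0.61 for CXCL8, 0.47 for CCL20 and 0.42 for CXCL2 on the log2 scale. Over all features its median was 0.16 and its upper quartile 0.23. IL6 stood at the 99.7th percentile of the 10803 features, CXCL8 at the 99.4th, CCL20 at the 97.5th and CXCL2 at the 96.2nd. Levels of IL6 differed by 3.12-fold between the lowest and the highest LNA-Scr array, those of CXCL8 by 2.69-fold, of CCL20 by 2.20-fold and of CXCL2 by 1.93-fold. Among LNA-205 arrays the same spans were 1.64-fold, 1.87-fold, 1.10-fold and 1.47-fold. The CXCL8 spans are those of its brighter probe. Its other probe spanned 0.81 log2 units in LNA-Scr and 0.90 in LNA-205. Whether the spread differed between the groups was not tested.

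**Figure D3:**
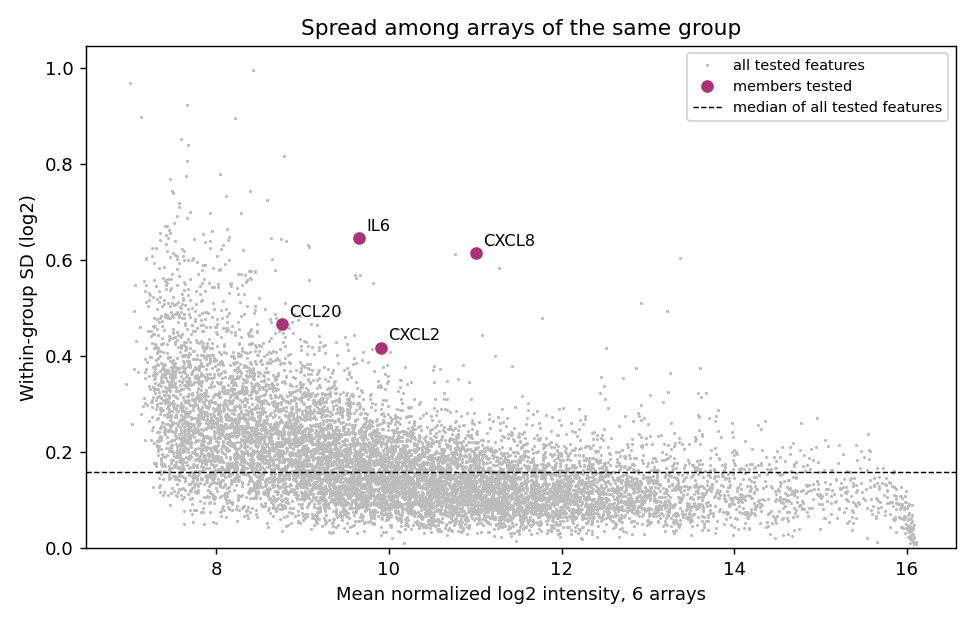
Pooled within-group SD of log2 values (vertical axis) against mean normalized log2 intensity over the 6 arrays (horizontal axis) for all 10803 tested features in grey, with the 4 measured members labelled. All 4 lie above the dashed median of 0.16, and IL6 (0.64) and CXCL8 (0.61) lie near the top of the cloud at their intensities.

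The measured members deviated together on several arrays. As deviations of an array from the gene's own mean over the 6 arrays, replicate A stood at −0.96 for CXCL8, −0.65 for CXCL2, −0.79 for CCL20 and −1.07 for IL6. It was the lowest array by at least 0.5, a gap chosen after the values were seen, for 4 of the 4. The same held for 53 of the 10803 features or 0.491%. On the other CXCL8 probe A deviated by −0.59 and D by −0.37, a gap under 0.5. The smallest gap of the 4 was 0.54 (CXCL2), so the choice of 0.5 fixed the count of members. Other arrays were lowest by that gap for 30 to 54 features each. With A lowest for all 4 members, no other array could be lowest for a member. Replicate C was above the mean for all 4, from 0.30 (CXCL2) to 0.57 (IL6). Replicate F was above it for CXCL8 (0.65), IL6 (0.51) and CXCL2 (0.45) but not for CCL20 (−0.04). The mean deviation of the 4 was −0.87 on A, 0.14 on B, 0.42 on C, −0.13 on D, 0.04 on E and 0.39 on F, while the median deviation of all features was within 0.01 of 0 on every array. Replicate A had the most probes above background (14195) and a median intensity of 218, and limma's array weight for it was 1.04, between 0.811 for C and 1.36 for E. The part of array quality in these deviations was not tested.

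With its brighter probe standing for CXCL8, CXCL8 and IL6, on different chromosomes, had the most similar profiles. The root mean square distance between their centred log2 values over the 6 arrays was 0.10. The distance was 0.19 between CXCL8 and CXCL2 of the same cluster, and 0.34 between CXCL8 and CCL20, the widest of the 6 pairs. CCL20 departed from the others mainly on replicates B and F. The other CXCL8 probe deviated by −0.59, −0.19 and 0.23 on A, B and C, against −0.96, 0.06 and 0.46 for the brighter. On D, E and F it deviated by −0.37, 0.38 and 0.53, against −0.25, 0.04 and 0.65. Distances from the other probe are not given, so the order of the pairs is that of the brighter probe only.

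The tested genes nearest to the mean profile of the 4 members were of several kinds. TNFAIP3, which encodes the NF-kappaB feedback inhibitor A20, was nearest at a distance of 0.13. Its log2 values were 9.83, 10.89 and 11.30 in LNA-Scr and 10.41, 10.95 and 11.24 in LNA-205, with A lowest, D next and C and F highest. It was also the nearest gene to IL6 alone (0.09). DUSP1, a phosphatase that switches off MAP kinases, came next (0.14), with 12.51, 13.47 and 13.94 in LNA-Scr and 12.96, 13.50 and 13.86 in LNA-205. SNORD31, a small nucleolar RNA, ZFYVE27 (protrudin, of the endoplasmic reticulum) and HES1, a transcriptional repressor downstream of Notch, followed, each at 0.14. HES1 was nearest to the brighter CXCL8 probe (0.06), the other CXCL8 probe not being compared. The transporter ABCC10 was nearest to CXCL2 (0.12) and UGGT1, a sensor of glycoprotein folding, to CCL20 (0.11). None of these 7 genes passed the test between groups, with unadjusted limma p between 0.301 and 0.985.

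**Figure D4:**
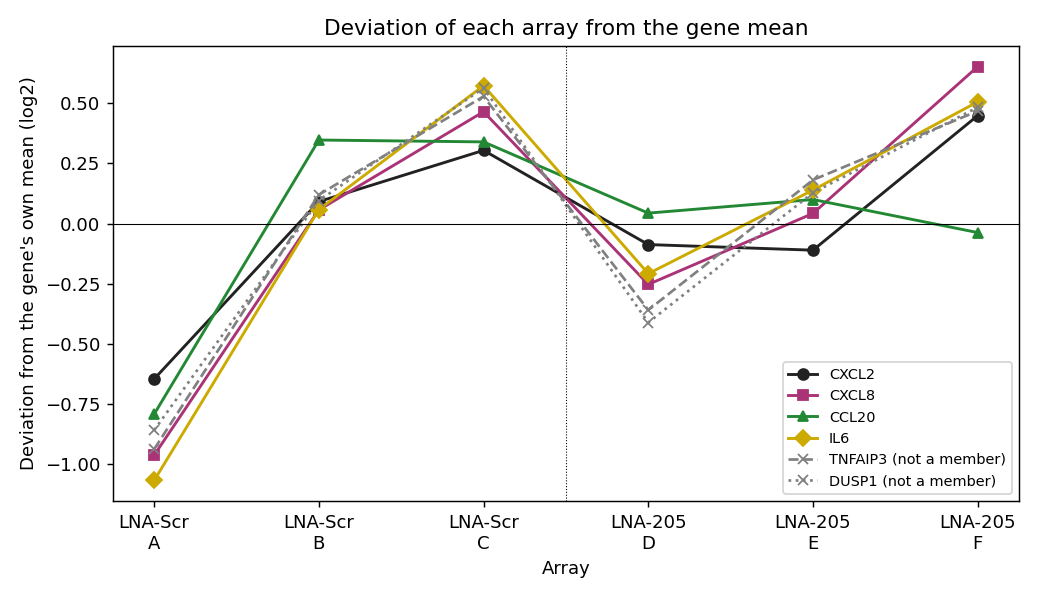
Deviation of each array from the gene's mean over the 6 arrays in log2 units (vertical axis) by array (horizontal axis) for CXCL2, CXCL8, CCL20 and IL6 and, in grey, for TNFAIP3 and DUSP1, the tested genes nearest to the members' mean profile. Lines only join the points of a gene, LNA-Scr replicate A is the lowest array for all 6 genes, and CCL20 is near 0 on LNA-205 replicate F where the other 5 are above 0.4.

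No gene around these ligands passed the test either. In 7 lists of receptors, other ligands and signalling genes, 120 of 131 genes had a probe and 68 were above background on enough arrays. Of these, 29 were higher on average with LNA-205 and 39 lower, with a median log2 difference of −0.04. Limma called 0 in either direction, and 2 of the 68 (2.94%) had an unadjusted p under 0.05, against the 6.27% of all features.

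Of 11 receptors with a probe 4 passed the filter, CCR6 among them with probes that disagreed. CXCR1, CXCR2, CCR2 and LIFR showed no signal above background on any of the 6 arrays. IL6ST (gp130), the signalling subunit for IL6 and LIF, was measured at 10.82 ± 0.16 in LNA-Scr and 10.88 ± 0.06 in LNA-205 (SD, n = 3 each, log2 difference 0.06, SE 0.11). IL6R, the IL6-binding chain, above background on 3 arrays, differed by −0.05 (SE 0.24) and OSMR, the oncostatin M receptor, by −0.05 (SE 0.19). The other probes annotated to IL6ST and IL6R were below background on all 6 arrays, so IL6ST and IL6R rest on 1 probe each. Of 3 probes annotated to CCR6, the CCL20 receptor, 1 was close to the top of the scale on all 6 arrays (log2 difference 0.05) and the other 2 were below background on every array, so no CCR6 level is given.

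Of 21 other chemokines with a probe only CXCL16 and CCL5 were measured. CXCL16, a membrane-bound chemokine, differed by 0.01 (SE 0.11). CCL5, a T cell chemokine induced by interferon and NF-kappaB, had a log2 difference of 0.53 (SE 0.29, limma adjusted p = 0.811), with 7.67, 8.34 and 8.04 in LNA-Scr and 8.22, 8.20 and 9.24 in LNA-205, where F stood apart. A second CCL5 probe, above background on 5 arrays, gave 0.11. CXCL10 was below background on all 6.

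Of 17 other cytokines with a probe 5 were measured. IL18 and IL1A, stored in epithelial cells and released on damage, were named for their signal, with log2 differences of 0.13 (SE 0.12) and −0.14 (SE 0.12). IL1B, an inducer of CXCL8 and IL6, differed by −0.08 (SE 0.15). TNFSF10 (TRAIL), a death receptor ligand, had the smallest p of the list, with a difference of 0.57 (SE 0.25, limma adjusted p = 0.791). TNF, OSM, CSF1 and CSF3 were below background on all arrays, and IL11 was above it on 1.

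Genes of NF-kappaB itself were well covered, with 19 of 23 measured, 8 with higher and 11 with lower means, and a median log2 difference of −0.03. IRF1, an interferon and NF-kappaB target, had an unadjusted limma p of 0.0458 (log2 difference 0.24, SE 0.10, adjusted p = 0.790). REL, the c-Rel subunit, differed by 0.34 (SE 0.16), although a second REL probe gave −0.15. NFKB1, the p50 precursor, differed by −0.07 (SE 0.11). NFKBIA, the inhibitor that NF-kappaB induces to restrain itself, differed by −0.03 (SE 0.30) with values of 12.54, 13.37 and 13.79 in LNA-Scr and 12.89, 13.29 and 13.44 in LNA-205. A was again lowest and D next. NFKBIZ, an inducible co-activator of IL6, named after its values were seen, differed by 0.32 (SE 0.37; 0.50 from a second probe above background on 3 arrays) and was 10.34 on A against 10.71 to 11.95 on the others. The median deviation of the 19 genes on replicate A was −0.16, less than that of TNFAIP3 (−0.94), NFKBIZ (−0.81) or NFKBIA (−0.68). Of the 19, TNFAIP3 was lowest on A by 0.5 or more.

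Upstream adaptors and kinases (13 of 19 measured, 6 higher and 7 lower, median −0.04) included CHUK, the IKK-alpha kinase, at −0.25 (SE 0.13), and TRAF6, the ubiquitin ligase of the interleukin-1 and Toll pathways, at 0.17 (SE 0.10), with 0.05 from a second TRAF6 probe. Named for their signal were IRAK1, an interleukin-1 receptor kinase, at −0.12 (SE 0.12) and TNFRSF1A, the TNF receptor, at −0.04 (SE 0.13). The gp130, JAK and STAT3 list (11 of 15 measured, 4 higher and 7 lower, median −0.04) included BCL6, a repressor, at −0.26 (SE 0.12). It also held TYK2, a kinase of the JAK family, at −0.15 (SE 0.10) and MCL1, a survival factor, at −0.01 (SE 0.11). A second MCL1 probe gave −0.07. SOCS3, the feedback inhibitor of gp130 signalling, was below background on all arrays.

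Regulators of cytokine mRNA decay were measured in 14 of 14 cases, 5 higher and 9 lower, with a median log2 difference of −0.05. KHSRP, which binds AU-rich mRNAs such as that of CXCL8 and speeds their decay, had the smallest p, with 11.25, 11.10 and 11.30 in LNA-Scr and 10.83, 10.97 and 10.95 in LNA-205. The groups did not overlap, as for 3 of the 14 genes of this list, KHSRP included, and 12.2% of all features. The KHSRP difference of −0.30 (SE 0.11) had an unadjusted limma p of 0.0235 and an adjusted p of 0.749. ZFP36L1, another decay factor, differed by −0.22 (SE 0.11) and HNRNPD (AUF1) by −0.05 (SE 0.10), with −0.04 from a second HNRNPD probe.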

How the data were processed

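Single-colour Illumina bead arrays, 1 per sample, were used, and group and replicate letter were taken from the sample titles. The deposited unnormalized table holds log2 intensities that had not been scaled between arrays, which was inferred from its values. Its detection p-values, deposited beside them, compare each probe with negative controls. The authors' processed log2 values, made by a method not given in the sources used here, served as an alternative, and those of replicate E equalled its unnormalized values for 48799 probes. The submitters' processing notes name the package lumi, with no version or role.

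Values were present for 48799 of 48803 probes. They were background-corrected with limma's neqc (offset 16, controls estimated from detection), quantile normalized and put on log2. Probes above background on at least 3 arrays (13423) were kept, with the brightest per gene, which gave 10803 features. Probes were named from the platform annotation, updated to RefSeq symbols of GRCh38.p14. Features were tested with limma 3.58.1 in R 4.3.3 (lmFit and eBayes, two-sided), with Benjamini-Hochberg adjustment at 0.05, and the fit was tested on simulated data. With 3 arrays per group, their number limits the precision.

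Named genes are all members, the 2 with the strongest signal and the 2 with the smallest p of each list, and the nearest profiles. IL6R, OSMR, IL1B, NFKBIZ and genes below background were named after their values were seen. The members and lists were chosen with earlier results of these data known. The silencing of miR-205 was not checked, since mature microRNA was not read here. Alternatives changed the background correction, the filter, the probe summary and the array weights, used the authors' values, or left out 1 array.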

Additional observations from a re-analysis of the deposited data

How the results depend on the processing

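No member and no listed gene was called under any of the 15 alternatives, whose log2 differences ranged from −0.11 to 0.36 for CXCL2, −0.11 to 0.60 for CXCL8, −0.31 to 0.26 for CCL20 and −0.17 to 0.65 for IL6, each range being set by arrays left out. The lowest limma adjusted p was 0.768. Without 1 array the difference was below 0 for all 4 genes (replicate A) and for CXCL2 (replicate F, −0.02); fewer arrays is the alternative's own construction, and the cause of replicate A's values was not tested. Over all features 1 was called, MCCC2, and 0 without a detection filter, with a gene's probes averaged, with every probe as its own feature or with a detection p under 0.05 (added after seeing the data), and 0 to 0 with 1 array left out. Without a filter, 2 of the 10 members had an unadjusted p under 0.05, as did 5.22% of 39556 features: CXCL1, higher in LNA-205 and above background on 1 array, and LIF, lower and below background on all 6. CXCL1 was higher in LNA-205 under each of the 10 further settings tried without a filter. Those settings use the same 6 arrays, whose CXCL1 values did not overlap between groups, so leaving 1 out could not change the direction. Without replicate A 1 of the 4, CCL20, had an unadjusted p under 0.05, in the lower direction. No paired analysis was possible because the replicate letters are not shared between groups. Probes near background limit what can be said of 6 of the 10 genes.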

Other observations

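The 53 features on which LNA-Scr replicate A was lowest by at least 0.5 on the log2 scale held other genes than the chemokines and cytokines, of which the following, above background on all 6 arrays, were picked after their values were seen. The gap of A to the next array was 0.74 for HES1, a Notch target, and 0.64 for PLK2, a stress-induced kinase. It was 0.58 for PTGER4, a prostaglandin E2 receptor, 0.58 for TNFAIP3 and 0.51 for BMP2, a growth factor of the TGF-beta family. Genes passed over, also above background on all 6 arrays, included CCT5 (0.76), UGGT1 (0.72) and LINC01068 (0.66). The named genes are thus no ranking of the 53. The largest gap of the 53 was that of TERC, the RNA of telomerase, at 1.05.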
